A study of Mus musculus with 6 samples.

Results

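S100a8, S100a9, Saa3, Il1rn, Il1b, Lcn2, Csf3r and Ltb4r1, 8 genes of neutrophils, the acute phase and interleukin-1 signalling, were followed in mouse shin muscle 48 h after exercise. They were chosen by gene symbol, with earlier results of these data known, and are 8 of the 8251 genes that the platform annotation named on the array. All 11 probe sets of these genes were described, and 6 of the genes had a single probe set. RNA came from the tibialis anterior. The eccentric group had performed 50 eccentric contractions, which stretch a muscle while it is active, and the isometric group 50 isometric contractions at a fixed muscle length, both by a non-invasive method. The control group was the legs opposite the exercised ones, made to contract no more than a torque measurement needed. The labels do not say whether those control legs belonged to the eccentric or the isometric animals. Each group was a single RNA pool of 4 animals, killed at 48 h, that was divided over 2 arrays, lettered A and B. The sources used here give no strain, sex or age. Every group is therefore 1 biological sample, the SD over n = 2 arrays covers labelling and hybridisation and not animals, and no p-value was computed.

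S100a8 and S100a9 pair as the calgranulins, calcium-binding proteins that fill the cytosol of neutrophils and are also made by monocytes. Saa3 is a serum amyloid A protein, made in mice by macrophages, fat and other tissues outside the liver as well as in the acute phase response. Il1b is the secreted interleukin-1 beta, and Il1rn is the antagonist that occupies its receptor without signalling. Lcn2 binds bacterial siderophores and so withholds iron, Csf3r is the receptor for the granulocyte colony-stimulating factor, and Ltb4r1 is the high-affinity receptor for leukotriene B4, a lipid that draws neutrophils and other leukocytes. Damaged muscle is known to take up neutrophils first and macrophages after them.

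The 6 arrays were alike in overall brightness, with median signals of 187 to 197 and 59.2% to 61.2% of 12488 probe sets above a floor of 120.8, the 40th percentile of all values. Of 12 markers of muscle fibres on the array, 11 lay above the floor on every array and the fibre myosin Myh2 was below it on all 6. The arrays of the isometric and control pools differed more within the pool than those of the eccentric pool, with an SD of the log2 difference between arrays A and B of 0.332 in the eccentric, 0.449 in the isometric and 0.493 in the control pool for genes with signals of 250 to 500. The 18S rRNA probe sets had geometric mean signals of 7199 and 10403 on the eccentric arrays, 1761 and 23476 on the isometric arrays and 15860 and 3870 on the control arrays. For beta-actin the log2 ratio of the 3' to the 5' probe sets was 0.43 and 0.45 on the eccentric arrays, 0.14 and 0.28 on the isometric arrays and 0.01 and 0.07 on the control arrays. For Gapdh it was 0.12 and 0.13 on the eccentric arrays, -0.07 and 0.27 on the isometric arrays and -0.05 and -0.07 on the control arrays. This measure of RNA quality thus differed between the pools. Its part in the results was not tested.

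Of the 8 genes, 6 had higher signals in the eccentric pool than in the control pool, 1 was higher in the isometric pool than in the control pool, and 4 were higher in the eccentric than in the isometric pool. Comparisons were limited to genes whose signal exceeded the floor on the A and B array of either pool, and a gene was called when the mean log2 signals differed by at least 1, a 2-fold difference, with all 4 pairings of arrays having the same sign. Against the control pool the eccentric pool had S100a8, S100a9, Saa3, Il1rn, Il1b and Ltb4r1 higher and 0 genes lower among 8 compared, with a median log2 difference of 1.41, beside -0.02 over all 5682 genes compared. By the same rule 5.16% of all genes were called higher and 1.06% lower. In the isometric pool against the control pool 5 of the genes could be compared, Il1rn was higher, Saa3 and Csf3r were lower, and the median was -0.07, beside -0.01 over 5574 genes, of which 0.915% were called higher and 0.323% lower. In the eccentric pool against the isometric pool S100a8, S100a9, Saa3 and Ltb4r1 were higher and 0 of 8 were lower, with a median of 1.09, beside 0.02 over 5622 genes, of which 1.73% were higher and 0.676% lower. The choice of the 8 genes rested on these same contrasts, so the counts describe them and are not read against those shares. After control A and isometric B, the arrays with the brighter 18S rRNA of their pools, were left out, the same 6 genes were called higher in the eccentric than in the control pool and the same 4 in the eccentric than in the isometric pool, and Csf3r was no longer called. Muscle RNA of this kind mixes all cell types, and more cells of a type cannot be told apart from more RNA per cell.

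**Figure D1:**
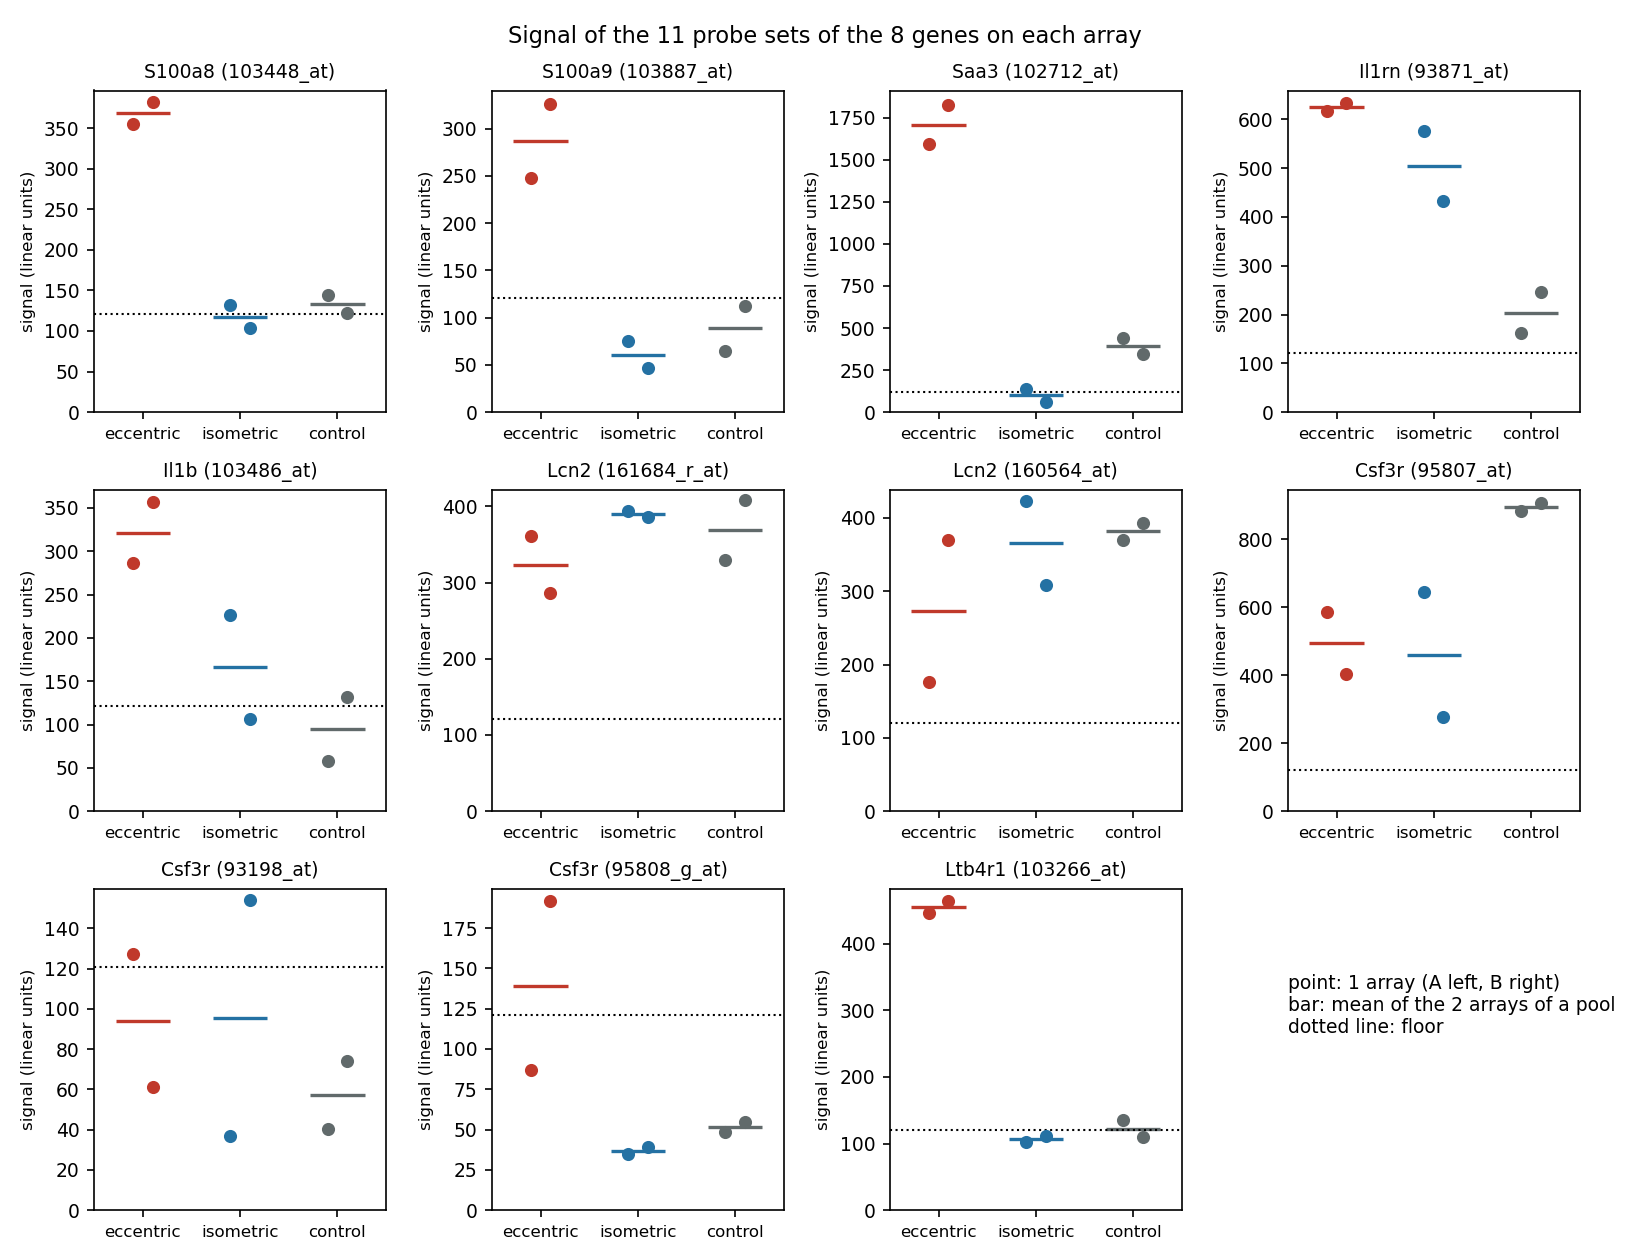
Signal of each of the 11 probe sets on every array (linear scale, arbitrary units, own axis per probe set), with the eccentric pool at the left, then the isometric and the control pool. Points are arrays, the bar is the mean of n = 2 arrays of 1 pool and the dotted line is the floor at 120.8; S100a8, S100a9, Saa3 and Ltb4r1 stand apart in the eccentric pool, and Il1rn is raised in both contraction pools.

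The sequences upstream of the 4 genes that were higher in the eccentric pool than in both other pools are shown here because these genes passed the rule in the same comparisons. Each is the 250 bases before the first base of the transcript, 5′ to 3′ on the strand of the gene, from RefSeq on the GRCm38.p6 assembly. The windows are chr3:90668821-90669070 on the plus strand for S100a8, chr3:90695722-90695971 on the minus strand for S100a9, chr7:46715677-46715926 on the minus strand for Saa3 and chr14:55765712-55765961 on the plus strand for Ltb4r1. Capitals mark matches to letters used by factors of myeloid and acute-phase genes: TTGCNNAA for C/EBP, GAGGAA for PU.1, TTCNNNGAA for STAT factors and a consensus for NF-kB, all on either strand, and TATAAA for the TATA box on the given strand.
S100a8: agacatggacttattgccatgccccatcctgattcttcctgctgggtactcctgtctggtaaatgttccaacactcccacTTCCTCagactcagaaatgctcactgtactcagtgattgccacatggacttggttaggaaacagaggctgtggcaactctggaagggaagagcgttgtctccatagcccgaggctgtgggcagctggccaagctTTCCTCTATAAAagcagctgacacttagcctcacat
S100a9: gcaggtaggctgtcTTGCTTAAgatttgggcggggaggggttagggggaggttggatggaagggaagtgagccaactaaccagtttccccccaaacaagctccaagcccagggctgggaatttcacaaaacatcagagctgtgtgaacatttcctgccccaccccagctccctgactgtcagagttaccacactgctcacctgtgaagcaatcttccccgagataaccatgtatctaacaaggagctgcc
Saa3: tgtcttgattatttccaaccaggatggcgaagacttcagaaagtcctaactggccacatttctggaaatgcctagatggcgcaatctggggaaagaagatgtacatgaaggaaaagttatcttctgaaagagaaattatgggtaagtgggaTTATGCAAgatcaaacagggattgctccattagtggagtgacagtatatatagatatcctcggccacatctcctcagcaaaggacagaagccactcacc
Ltb4r1: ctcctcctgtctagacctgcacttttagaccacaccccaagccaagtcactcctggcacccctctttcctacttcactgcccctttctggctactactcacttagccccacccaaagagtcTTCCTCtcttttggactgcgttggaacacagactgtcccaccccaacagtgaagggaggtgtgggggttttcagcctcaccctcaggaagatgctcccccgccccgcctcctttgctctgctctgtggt

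The windows of S100a8 and S100a9 did not hold the same letters. S100a8 had PU.1 letters on the opposite strand that began 170 and 36 bases before the start, and TATA letters at 30 bases that follow directly on the nearer PU.1 match. S100a9 had C/EBP letters at 236 bases and Saa3 had them at 99 bases, while Ltb4r1 had PU.1 letters on the opposite strand at 129 bases. Among 32851 windows of this length in the same table, 9.56% held the C/EBP letters, 23.3% those of PU.1, 7.02% those of STAT factors, 3.9% the NF-kB consensus and 7.59% the TATA letters. None of the 4 windows held STAT or NF-kB letters. A match is a description of the sequence and not a measured site.

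Both calgranulin transcripts were raised in the eccentric pool and stayed near or under the floor elsewhere. S100a8 had signals of 354.7 and 382.3 on the eccentric arrays, 131.6 and 104 on the isometric arrays and 143.8 and 122.6 on the control arrays. The eccentric arrays lay above all 4 others, and the isometric and control arrays overlapped. The eccentric mean of 369 ± 19.5 was 2.77-fold that of the control pool, 133 ± 15.0, and 2.92-fold that of the isometric pool, 118 ± 19.5 (SD, n = 2 arrays each), a ratio that is understated because isometric B was at the floor. On the log2 scale the 4 pairings with the control arrays gave 1.30 to 1.64. Between the isometric and the control pool the log2 difference was -0.07. S100a8 ranked 94th from the top among 5682 genes against the control pool and 22nd among 5622 against the isometric pool.

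S100a9, which forms a heterodimer with S100a8, had signals of 248.2 and 326.5 on the eccentric arrays, 75.1 and 46.6 on the isometric arrays and 65.2 and 112 on the control arrays. All 4 isometric and control arrays lay below the floor, so the comparison of those pools was not made. The eccentric pool was at least 2.36-fold above each of them, with pairings from 1.04 to 1.43 on the log2 scale. Over the 6 arrays the log2 signals of the calgranulins had a Pearson correlation of 0.98, a description of 6 points from 3 pools that share their arrays. The 4 S100a9 values outside the eccentric pool were all raised to the floor. The correlation therefore largely restates that both genes were high on the eccentric arrays.

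Saa3 had the largest difference between the contraction pools of all genes compared. Its signals were 1592.3 and 1823.7 on the eccentric arrays, 135.7 and 62.6 on the isometric arrays and 441.3 and 343.8 on the control arrays. The pools did not overlap, and the isometric pool lay below the control pool. The eccentric mean of 1708 ± 164 was 4.38-fold that of the control pool, 393 ± 68.9 (SD, n = 2 arrays each), with a log2 difference of 2.13 (pairings 1.85 to 2.41) that ranked 15th of 5682. The isometric mean of 99.2 ± 51.7 was 3.04-fold lower than that of the control pool, at a log2 difference of -1.61 (pairings -1.87 to -1.34). Between the eccentric and the isometric pool the log2 difference was 3.73, or 13.3-fold, the highest of 5622. Isometric B was at the floor, so the ratios to the isometric pool understate the distance. Saa3 was the only gene of 5783 compared that was called higher in the eccentric and lower in the isometric pool against the control pool, which both comparisons share. The order of the isometric and control pools rests on 1 control pool from the opposite legs of exercised animals.

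The interleukin-1 antagonist was the only 1 of the 8 genes called higher after both kinds of contraction. Il1rn had signals of 617.4 and 633.1 on the eccentric arrays, 576.7 and 432.1 on the isometric arrays and 161.4 and 246 on the control arrays. All 4 arrays of the contraction pools lay above both control arrays. Against the control mean of 204 ± 59.8, the eccentric mean of 625 ± 11.1 was 3.14-fold higher and the isometric mean of 504 ± 102 was 2.51-fold higher (SD, n = 2 arrays each). The log2 differences were 1.65 (pairings 1.33 to 1.97) and 1.32 (pairings 0.81 to 1.84). The isometric difference was the 10th highest of 5574 genes. The eccentric arrays were also above the isometric arrays, but by a log2 difference of 0.32, which did not pass the 2-fold rule.

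Il1b, the agonist that Il1rn opposes, had signals of 286.8 and 356.3 on the eccentric arrays, 226.3 and 105.8 on the isometric arrays and 57.8 and 132.1 on the control arrays. The eccentric pool lay above all other arrays, and the isometric arrays straddled the control B signal. The eccentric mean of 322 ± 49.1 was 2.53-fold above the control mean of 94.9 ± 52.5 (SD, n = 2 arrays each), with pairings from 1.12 to 1.56 and control A at the floor. Against the isometric pool, at 166 ± 85.2, the log2 difference was 0.95 and was not called. It became 1.40 without isometric A and 1.11 without eccentric A, both of which passed the rule.

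Among the 8 genes, Ltb4r1 had the profile nearest to the calgranulins. This largely restates that all of them were high on the eccentric arrays and near or under the floor elsewhere. Ltb4r1 signals were 446.1 and 464.7 on the eccentric arrays, 102.3 and 111.4 on the isometric arrays and 134.7 and 109.4 on the control arrays. The eccentric arrays were close to each other, and only control A of the other 4 exceeded the floor. The eccentric mean of 455 ± 13.2 was 3.57-fold above the control mean of 122 ± 17.9 (SD, n = 2 arrays each), at a log2 difference of 1.84 (pairings 1.73 to 1.94) that is understated because control B was at the floor. Against the isometric pool, which was below the floor, it was at least 3.77-fold higher, the 13th highest of 5622 genes.

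Lcn2 and Csf3r did not share the pattern. Lcn2 had signals of 360.7 and 286.1 on the eccentric arrays, 394.1 and 385.6 on the isometric arrays and 329.4 and 407.7 on the control arrays on the brighter of its probe sets. The eccentric and control arrays overlapped, and the log2 differences were -0.19 for eccentric against control, 0.09 for isometric against control and -0.28 for eccentric against isometric. The dimmer probe set of Lcn2 had 175.8 and 369.2 on the eccentric arrays, 423.6 and 308.1 on the isometric arrays and 370.1 and 393.5 on the control arrays. It gave a log2 difference of -0.58 between the eccentric and the control pool and was not called.

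Csf3r had its highest signals in the control pool on the brightest of its 3 probe sets. They were 585.7 and 402.3 on the eccentric arrays, 643.9 and 276.5 on the isometric arrays and 883.9 and 906.7 on the control arrays. The isometric arrays were far apart, with a mean of 460 ± 260 (SD, n = 2 arrays), and the eccentric arrays lay between them. The isometric pool was called lower than the control pool, at a log2 difference of -1.09, which was -0.48 and not called without isometric B. The eccentric pool had a log2 difference of -0.88 from the control pool and was not called, but was called at -1.15 without eccentric A. A dimmer probe set made from the same database sequence had 86.9 and 191.7 on the eccentric arrays, 34.7 and 38.9 on the isometric arrays and 48.6 and 54.5 on the control arrays, and the third had 127.1 and 61.3 in the eccentric, 37.1 and 154 in the isometric and 40.2 and 73.9 in the control pool. In no pool did either exceed the floor on the A and the B array, so the lower Csf3r signal rests on 1 of 3 probe sets.

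**Figure D2:**
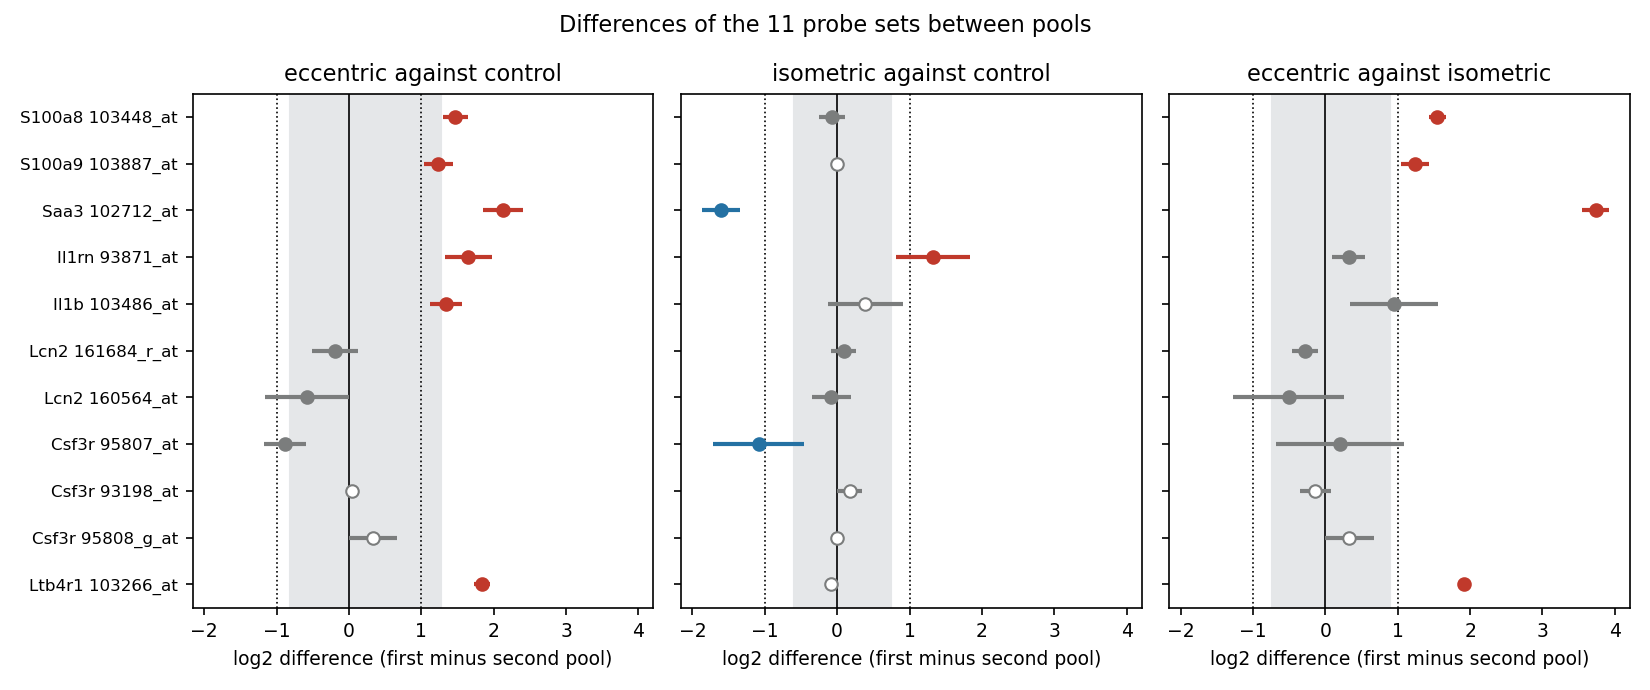
Log2 difference of each of the 11 probe sets for eccentric against control, isometric against control and eccentric against isometric. Points are differences of pool means (red called higher, blue called lower, open not compared), lines span the 4 pairings of arrays, dotted lines mark 2-fold and the grey band is the central 95% of all genes compared; Saa3 reaches 3.73 for eccentric against isometric and -1.61 for isometric against control.

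Most defining neutrophil markers lay at or under the floor in every pool. Of 19 such genes 13 were on the array, and 8 of these, the granule genes Ngp, Prtn3, Ctsg, Mmp8 and Mmp9 with Ly6g, Fpr2 and Padi4, lay below the floor on all 6 arrays. Summed over the 13 genes, signals were 1260 and 990 on the eccentric arrays, 1155 and 1413 on the isometric arrays and 1535 and 1028 on the control arrays, ranges that overlap. The antimicrobial peptide Camp had 355.8 and 249.9 on the eccentric arrays, 366.5 and 263.4 on the isometric arrays and 340.3 and 252.6 on the control arrays. The elastase Elane had 205.5 and 206.2 on the eccentric arrays, 283.3 and 338.4 on the isometric arrays and 458.2 and 169.6 on the control arrays. Of the markers that could be compared, 0 of 3 were called for either contraction pool against the control pool and 0 of 2 between the contraction pools. The peroxidase Mpo had 166.9 and 116.8 on the eccentric arrays, 109.1 and 174.4 on the isometric arrays and 146.3 and 153.1 on the control arrays. Lactoferrin, Ltf, exceeded the floor on eccentric A at 143.4 and isometric A at 122.8 and on no other array. The receptor Cxcr2 exceeded the floor only on control A, at 170.7. These are RNA signals of marker genes, and whether neutrophils were present in the muscle was not tested.

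Macrophage markers, in contrast, were high and mostly moved with the same comparisons. Their signals summed over 19 genes on the array were 39810 and 39529 on the eccentric arrays, 23749 and 21679 on the isometric arrays and 13592 and 14602 on the control arrays, with 17 to 19 of them above the floor on each array and none at or below it on all 6. In the eccentric pool 16 of 19 were higher than in the control pool and 0 were lower, with a median log2 difference of 1.64, and 9 were higher when the mean of all probe sets of a gene was used. Cd53, a leukocyte tetraspanin, was 7.09-fold higher with control A at the floor, the monocyte chemokine receptor Ccr2 was 4.91-fold higher, the scavenger receptor Msr1 3.97-fold and the signalling adaptor Tyrobp 3.75-fold. The dimmer probe set of Msr1, with log2 differences from the control pool of 0.90 after eccentric and -0.17 after isometric contractions, was not called in either. It was called higher in the eccentric than in the isometric pool, at 1.08, where the probe set used had 0.83 and was not. In the isometric pool 5 of 18 were higher than in the control pool, Msr1, Cd52, Lyz2 and Lgals3 among them, with a median of 0.58, and 2 were called after control A and isometric B were left out, 3 without isometric B alone and 2 with the mean of all probe sets. Between the contraction pools 9 of 19 were higher in the eccentric pool, with a median of 0.88. Over all genes, the shares called higher were 5.16% for eccentric against control, 0.915% for isometric against control and 1.73% for eccentric against isometric. These shares also apply to the lists that follow. The lists were chosen with earlier results of these data known, so their counts are not read against the shares. Cx3cr1 alone of the 19 was lower in the eccentric pool, by log2 differences of -0.32 from the control and -0.37 from the isometric pool, not called. The brighter probe set of C1qb was called in these comparisons, at 1.46 and 1.05. Its dimmer probe set, of nearly equal signal, had -0.62 and -0.95 and was not called. The part of macrophage RNA in the calgranulin, Saa3 and interleukin-1 signals was not tested.

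**Figure D3:**
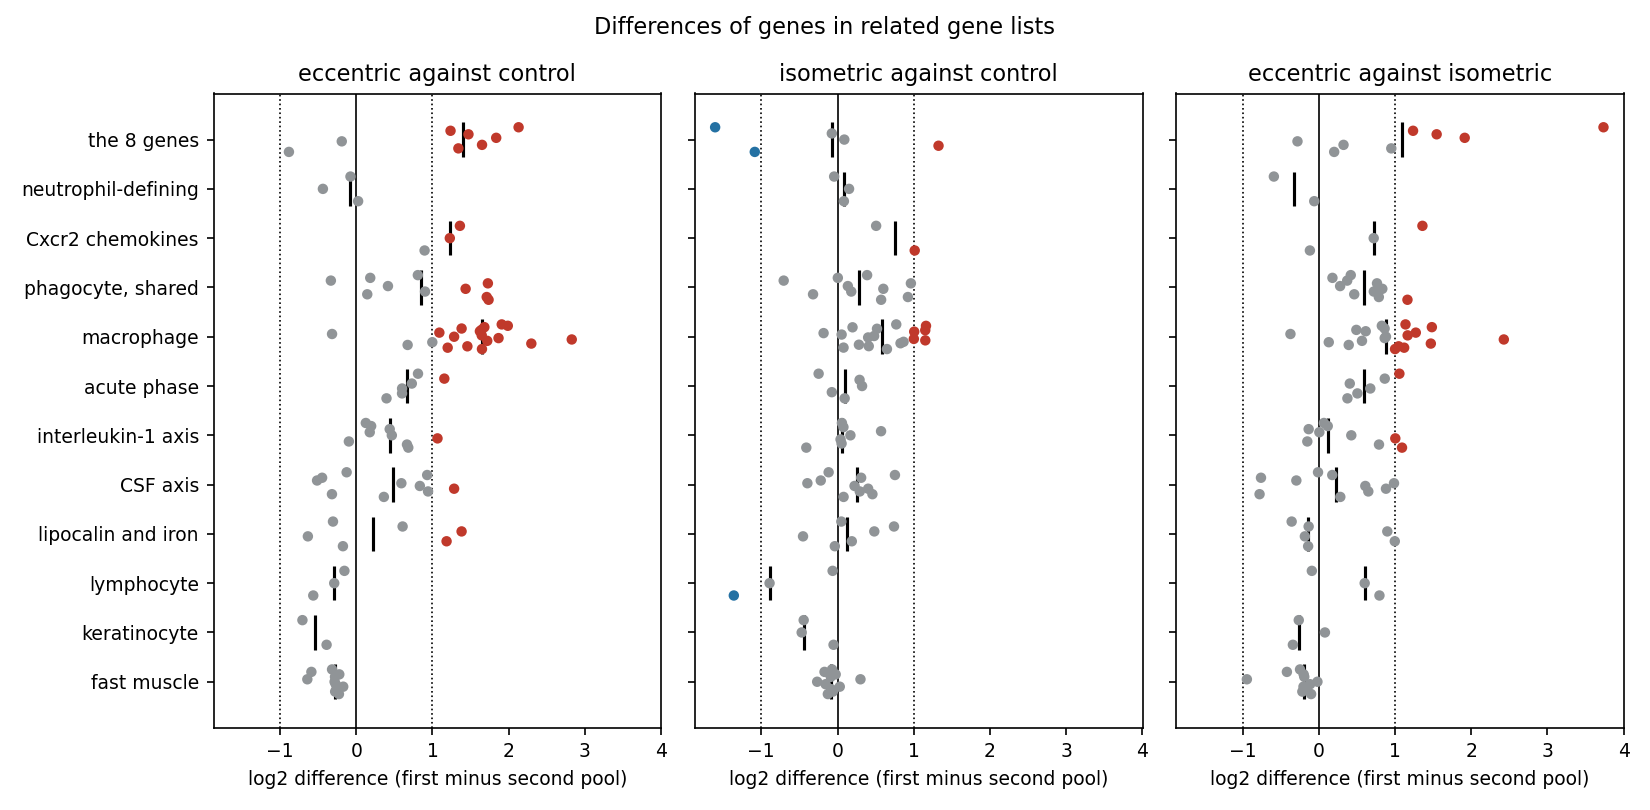
Log2 difference of every compared gene of the lists named at the left, for eccentric against control, isometric against control and eccentric against isometric. The calgranulin receptor, leukotriene, mast cell, adipocyte, red blood cell, endothelial and fibroblast lists are not drawn. Points are genes, black bars are list medians and dotted lines mark 2-fold. Macrophage markers have medians of 1.64, 0.58 and 0.88 over 19, 18 and 19 genes. Defining neutrophil markers have medians of -0.08, 0.08 and -0.32 over only 3, 3 and 2 genes.

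Genes shared by neutrophils and macrophages lay between these lists. Of 10 compared, 4 were higher in the eccentric pool than in the control pool, with a median of 0.86. They were the lectin receptor Clec4d at least 3.33-fold, the NADPH oxidase subunits Ncf4 at 3.31-fold and Cyba at 3.27-fold, and the integrin chain Itgb2 at 2.70-fold with control A at the floor. In the isometric pool 0 of 10 were called against the control pool, with a median of 0.28. Clec4d was the 1 gene of the 10 called higher in the eccentric than in the isometric pool, at 2.24-fold, and was not called without isometric A. The dimmer probe set of Cyba was also called in that comparison, at a log2 difference of 1.24, where the probe set used had 0.79.

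Each of the 3 measured chemokines that act on Cxcr2, the main chemokine receptor of neutrophils, was called higher in at least 1 of the contraction pools against the control pool. Cxcl5 had 300.1 and 320.2 on the eccentric arrays, 89.1 and 84.3 on the isometric arrays and 17.3 and 51.3 on the control arrays, and was at least 2.57-fold higher in the eccentric pool than in either. Cxcl2 had 259 and 308.8 on the eccentric arrays, 193.4 and 152.3 on the isometric arrays and 35.6 and 92.2 on the control arrays, and was at least 2.34-fold higher in the eccentric than in the control pool. The brighter of the probe sets of Cxcl1 had 571.7 and 517.1 on the eccentric arrays, 548 and 633.9 on the isometric arrays and 299 and 285.4 on the control arrays. It was called 2.02-fold higher in the isometric pool, a call that ended without isometric B or control B, and its log2 difference of 0.90 in the eccentric pool was not called. The dimmer probe set of Cxcl1 was called higher in both contraction pools, at log2 differences from the control pool of 1.73 after eccentric and 1.78 after isometric contractions, so the probe sets disagree on the eccentric call. With the brighter probe set of each gene the list had 2 of 3 genes higher for eccentric against control, 1 of 2 for isometric against control and 1 of 3 for eccentric against isometric, with 0 lower.

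Acute-phase genes other than Saa3 were mostly dim, 10 of 19 on the array being below the floor on all 6 arrays. Of 6 compared, Saa2 was called higher in the eccentric than in the control pool, and the list median was 0.67. The probe set used for Saa2 was 2.23-fold higher, and its second probe set had a log2 difference of -0.04. Its call ended without eccentric A or control A. The protease inhibitor Serpina3n had 2198 and 2082 on the eccentric arrays, 987.4 and 1070 on the isometric arrays and 1123 and 1326 on the control arrays, and was 2.08-fold higher in the eccentric than in the isometric pool, a call that ended without isometric A. In the isometric pool 0 of 5 acute-phase genes were called against the control pool.

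The calls among other genes of the interleukin-1 axis each depended on single arrays. Of 9 compared, the adaptor Myd88 was called higher in the eccentric than in the control pool, at 2.09-fold, and the list median was 0.44. That call ended without eccentric B or control B. Between the contraction pools the signalling receptor Il1r1 was 2.13-fold and Myd88 2.01-fold higher in the eccentric pool. The call of Il1r1 ended without eccentric A or isometric B and that of Myd88 without eccentric B or isometric A. For isometric against control 0 of 7 were called. Of 8 genes listed as possible calgranulin receptors, 5 were on the array. Among the 4 compared, Cd14, Cd36, Scarb1 and Bsg, 0 were called in any comparison. The receptor Ager could not be compared in any of them. The coreceptor Cd14 had 2008 and 2083 on the eccentric arrays, 1898 and 1837 on the isometric arrays and 974 and 1077 on the control arrays, and for eccentric against control it fell just short of the 2-fold rule.

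In the colony-stimulating factor axis 1 of 10 compared genes was higher in the eccentric than in the control pool. This was Csf1r, the receptor of macrophage colony-stimulating factor, at 2.43-fold on its brighter probe set, while its dimmer probe set lay the other way, at a log2 difference of -0.28 that did not pass the rule. In the other comparisons 0 of the 10 were called. In the list of lipocalin and iron-handling genes the metal transporter Slc11a1 and the heme oxygenase Hmox1, 2 of 6, were higher in the eccentric than in the control pool, at 2.61-fold and 2.27-fold, and 0 of 6 were called in the other comparisons. Of the list of leukotriene genes 2, Lta4h and Ltc4s, could be compared and 0 were called. Keratinocyte markers, which would mark skin, a tissue that makes calgranulins, had 5 of 9 on the array below the floor on all arrays and 0 called in any comparison. Among lymphocyte markers, of which 6 of 10 were below the floor on all arrays, Cd4 was at least 2.57-fold lower in the isometric than in the control pool, a call that ended without control A. Of 8 fibroblast markers Thy1 was higher in the eccentric than in the control pool, at 2.05-fold, a call that ended without eccentric A, and 0 of 8 were called in the other comparisons. A dimmer probe set of Col3a1 was also called higher for eccentric against control, at a log2 difference of 1.04. The probe set used for Col3a1 had 0.57 and was not called. No comparison called any of 2 mast cell, 4 adipocyte, 3 red blood cell, 8 endothelial and 11 muscle fibre markers.

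Over all genes, the profiles nearest to the calgranulins were ranked by the Pearson correlation of log2 signal over the 6 arrays with the mean of S100a8 and S100a9. Among 414 genes that differed by at least 1 on the log2 scale between the highest and the lowest pool, the amino acid transporter subunit Slc7a7 (0.996), Cxcl5 (0.996), Ltb4r1 (0.995), the tetraspanin Cd82 (0.994) and the ubiquitin ligase Trim13 (0.990) were nearest. A correlation above 0.95 was reached by 41 of the 414. Saa3 had 0.911, Il1b 0.871, Il1rn 0.597 and Csf3r -0.258. These values describe 6 arrays of 3 pools. The 414 genes also had to exceed the floor on the A and B array of at least 1 pool. S100a9, Slc7a7 and Cxcl5 lay below the floor on every isometric and control array, where their values were raised to it. Outside the eccentric pool Ltb4r1 exceeded the floor only on control A, and Trim13 only on control B, at 123. The high correlations of Slc7a7, Cxcl5, Ltb4r1 and Trim13 therefore largely restate that they exceeded the floor only or mainly in the eccentric pool.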

How the data were processed

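Values were 1 linear intensity per probe set and array, on Affymetrix MGU74Av2 arrays, as the authors deposited them, with equal trimmed means (2% off each end). The software behind the deposited intensity values is not given in the sources used here. Genes were named from GEO's platform annotation, which gave 1 gene for 10833 of 12488 probe sets.

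From these, arrays were scaled to equal trimmed means by factors of at most 1.00002, values below the 40th percentile (120.8) were raised to it, and log2 was taken. The brightest probe set stood for a gene. A gene was called by the 2-fold rule given in the text. A fold is 2 to the power of the log2 difference, and is a lower bound, written at least, where the dimmer pool was at the floor on both arrays. With 1 sample per group no test was possible, and the number of arrays, 2 per pool, limits precision.

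The 8 genes, the 18 lists (217 genes, 174 on the array) and the rules were chosen with earlier results of these data known. Named are all probe sets of the 8 genes, the defining neutrophil markers, up to 4 called genes per list and the 5 nearest profiles; further list genes, such as Cd14, were named after their values were seen. Alternatives changed the scaling, floor, filter, fold threshold, probe sets, pairing and arrays. Sequences came from RefSeq promoter windows, matched for 8 of 8 genes. Python 3.11.15, numpy 2.4.6, pandas 2.3.3 and matplotlib 3.10.9 were used.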

Additional observations from a re-analysis of the deposited data

Results flagged for a closer look

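Among the 8 genes and the 174 list genes on the array, 10 had the eccentric arrays on one side of both control arrays and both isometric arrays on the other. The difference was not tested, and the control pool is shared. Over all genes that exceeded the floor on the A and B array of at least 1 pool, 198 of 5783 (3.42%) did so. The list genes were counted without that floor requirement, and many lay below the floor on all arrays, so the counts are not compared.

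Saa3 had a log2 difference of 3.73 between the eccentric and the isometric pool. Among acute-phase and interleukin-1 genes Serpina3n had 1.06 and Il1r1 had 1.09. Csf2rb2, a receptor subunit of the colony-stimulating factor axis, had 0.99, with 335 and 276 on the eccentric arrays, 129 and 183 on the isometric arrays and 199 and 204 on the control arrays. Lta4h, which makes leukotriene B4, had 0.49, with 878 and 794 on the eccentric arrays, 581 and 606 on the isometric arrays and 670 and 703 on the control arrays. The mast cell protease Cma1 had 0.69.

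In 4 genes the eccentric pool lay below the control pool and the isometric pool above it. The kinase Jak2 had a log2 difference of -0.76 and the transcription factor Cebpd one of -0.78, with 1875 and 1745 on the eccentric arrays, 2770 and 3465 on the isometric arrays and 2245 and 2267 on the control arrays. The fat hormone Adipoq had -0.45 and the collagen Col1a1 had -0.85, whose second probe set had -0.11.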

How the results depend on the processing

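The 8 genes in 3 comparisons under 15 alternatives gave 360 values. Of these 327 kept their side of the rule, 19 lost a call, 6 gained it and 8 that were not called changed sign. No called value changed sign. Part of this agreement was fixed in advance. Dropping the filter, lowering the threshold to 1.5-fold or pairing by letter cannot end a call. The mean of all probe sets leaves the 6 genes with a single probe set unchanged. Leaving out both control A and isometric B repeats a single leave-out in each comparison with the eccentric pool. In the paired version, with the array letter as a replicate block, 353, 69 and 135 genes were called for eccentric against control, isometric against control and eccentric against isometric, with 6, 1 and 4 of the 8 higher, as without it. That version keeps the mean difference and checks only the same-letter pairings, so it could add calls but not lose any. For eccentric against control, 617 genes were called with a floor at the 20th percentile, 1103 at 1.5-fold and 75 at 3-fold. When all 4 arrays had to exceed the floor, 5 of the 8 genes could be compared and 3 were higher. At 3-fold 3 were higher, and 1 (Csf3r) was lower at 1.5-fold and 0 to 1 with an array left out. For isometric against control, 268 genes were called with the lower floor, 346 at 1.5-fold, 6 at 3-fold, 45 with the mean of all probe sets, 136 without both control A and isometric B (chosen after seeing the data, for brighter 18S rRNA) and 82 to 206 with an array left out. At 3-fold 0 of the 8 were higher. Of the 2 lower genes, 1 was still called with log2(signal + 50), with all 4 arrays above the floor, at 3-fold, with the mean of probe sets and without both arrays, and 1 to 2 with an array left out; Csf3r was lost except with all 4 arrays above the floor, where 3 of the 8 could be compared and Saa3 could not. For eccentric against isometric, 337 genes were called with the lower floor, 711 at 1.5-fold, 22 at 3-fold, 204 without both arrays and 176 to 219 with an array left out; 2 of the 8 were higher at 3-fold. When all 4 arrays had to exceed the floor, 0 were higher among the 3 that could be compared; S100a8, S100a9, Saa3 and Ltb4r1, each with at least 1 isometric array at the floor, were not among them. With the lower floor the share of calls that were higher was 70.02% for eccentric against control, beside 83% before, and 54.85% for isometric against control, beside 73.91%. Saa3 and Il1rn were called higher for eccentric against control in all 15 alternatives. With the mean of all probe sets 9 macrophage markers were higher for eccentric against control. Low signal limits the rest: S100a9, Il1b and Ltb4r1 were at the floor on some or all arrays outside the eccentric pool, so their folds depend on it. Apart from such changes in what the rule admits, the cause of these shifts was not tested. The variation between animals was not measured.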
